A study of Homo sapiens with 6 samples.

Results

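Integrins and laminins were described here as 37 genes of the 18239 measured: 26 integrin subunits, 10 laminin chains and ITGBL1, which shares the integrin prefix but is not a receptor subunit. They were taken by gene symbol, as every ITGA, ITGB, LAMA, LAMB or LAMC gene that a probe set of the array named. No measured value entered this rule, but it was set with earlier results of these data known. LAMA3 was not analysed here. Each gene was read from the probe set with the highest mean signal over all arrays, out of 108 probe sets for these genes. RNA came from HK-2, an established human cell line of the renal proximal tubule, on 6 arrays: 2 of untreated cells (control), 2 of cells given 50 μM cisplatin for 6 h and 2 of cells given the same dose for 24 h. The culture medium, common to all groups, held growth factor and pituitary extract but no serum. No time is stated for the untreated cells, so cisplatin and time in culture cannot be told apart, and both treated groups were compared with the same control arrays. The labels name the arrays of a group biological replicates without saying how cultures were separated, so the tests rest on the spread between those arrays, which may be technical.

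Integrins are receptors made of an alpha and a beta subunit that span the cell membrane and hold cells to the matrix around them. Laminins are trimers of an alpha, a beta and a gamma chain and form the sheet of the basement membrane on which tubular epithelium sits. In the kidney tubule, laminin receptors and receptors for matrix proteins with an RGD motif (arginine, glycine, aspartate) anchor cells to this sheet and pass signals to focal adhesions inside the cell.

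The labelled cell type was checked against marker genes. Of 8 renal epithelial markers measured, 6 had a log2 signal of at least 5 on every array (PAX8, CDH6, KRT8, KRT18, KRT19 and CD24). These markers moved with cisplatin as well, since all of them but KRT8 were lower at 24 h, CDH6 by 11.7-fold, KRT19 by 4.35-fold and PAX8 by 3.69-fold, and the median level of the list went from 9.48 in control to 9.06 at 6 h and 8.33 at 24 h. Their part in the results was not tested. None of 8 markers of the mature proximal tubule, such as the transport genes LRP2 and SLC34A1, reached 5 on every array. Of the markers of other cells, all 5 for endothelium and 5 of 6 for leukocytes stayed below 5 on all arrays, and the fibroblast genes LUM and DCN were above it. Replicate arrays correlated at 0.997 (control), 0.998 (6 h) and 0.996 (24 h) over probe sets. The 3′ minus 5′ signal of beta-actin, a measure of RNA integrity, was 2.07 and 1.11 in control, 2.02 and 1.53 at 6 h, and 1.97 and 2.83 at 24 h. Its part in the results was not tested, and the second 24 h array had the highest value.

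At 24 h, 10 of the 37 genes were lower than in control and 8 were higher, at an adjusted p under 0.05 in limma. These counts rest on 1 probe set a gene, and for ITGA4, counted as lower, other probe sets went the other way. The falls included the laminin chains LAMC1, LAMB3 and LAMB1 and the integrin subunits ITGB8, ITGA3, ITGA6 and ITGAV, and the largest was 3.91-fold. The rises, led by ITGA7 at 1.77-fold, were all under 2-fold, and all 8 took negative values when arrays were scaled to all spike-in controls or to the poly-A spike-ins. Over all genes, 23% were lower and 31.2% higher at 24 h, so the share of these genes that fell (27%) was near the background and the share that rose (21.6%) was below it. At 6 h, 5 genes were lower (LAMB3, LAMC1, ITGB8, ITGA3 and ITGAV) and 2 higher (ITGA7 and ITGAE), where 15.8% of all genes were lower and 14% higher. Between 6 h and 24 h, 9 fell and 4 rose, against 16.7% and 21.2% of all genes. In either direction, 29.8% of all genes passed at 6 h and 54.2% at 24 h, and 37.9% passed between them. Past a 2-fold change at an unadjusted p under 0.01, 1 gene was lower at 6 h (3.47% of all genes), 5 at 24 h (7.39%) and 3 between the times (2.03%). None was higher by that rule, which took 1.47%, 4.73% and 1.34% of all genes. The arrays of the groups did not overlap for 14 genes that were higher and 10 that were lower at 6 h (34.8% and 28.7% of all genes), for 14 and 14 at 24 h (46.9% and 29.7%), and for 12 and 14 between the times (42% and 27.7%). The median log2 fold change of the 37 genes was 0.01 at 6 h and 0.04 at 24 h, beside 0.03 and 0.10 for all genes. In RNA of a whole culture, a lower share of cells that express a gene and less of its RNA per cell cannot be told apart.

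**Figure D1:**
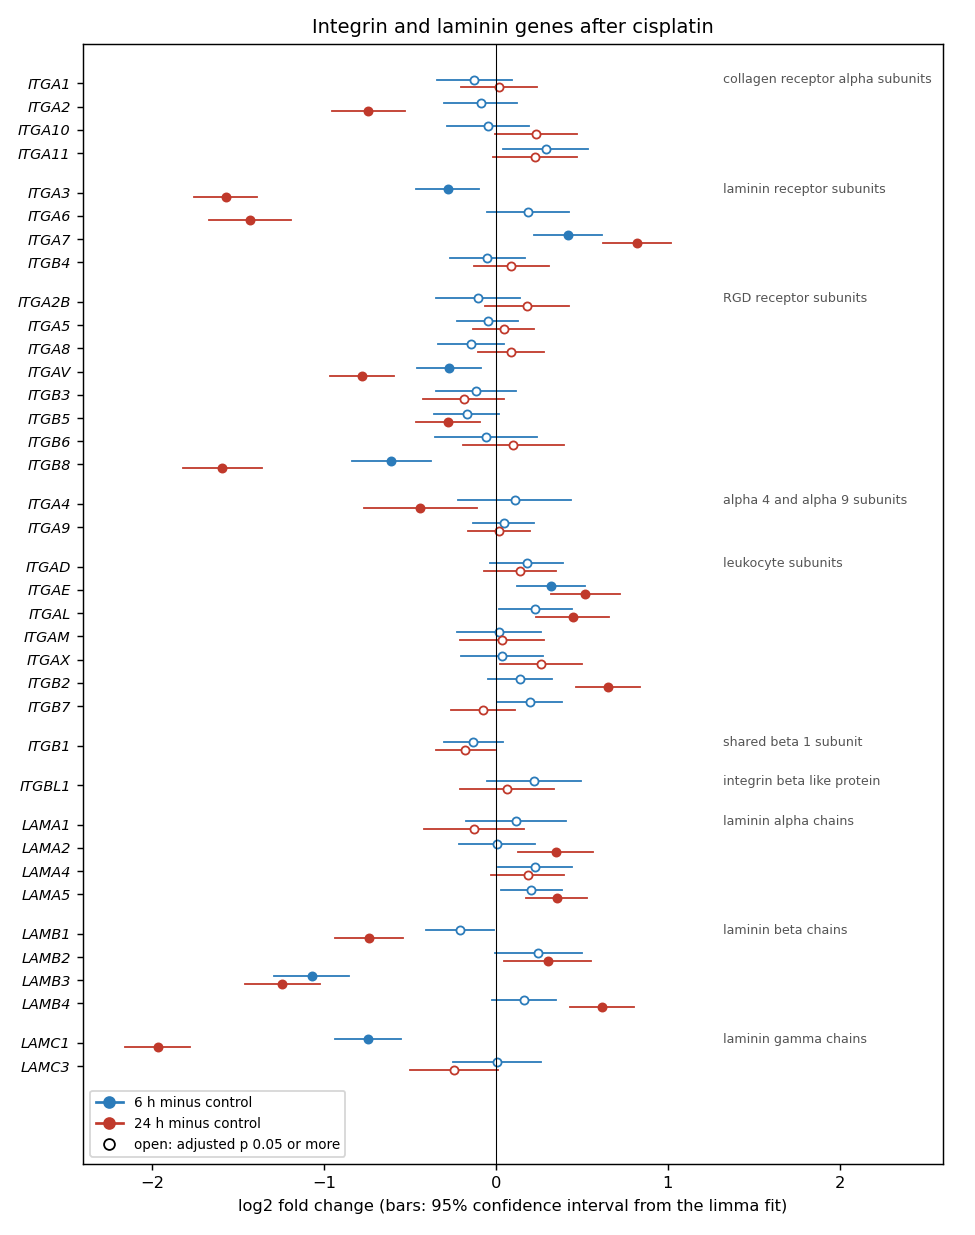
Log2 fold change of each of the 37 genes at 6 h (blue) and 24 h (red) against control, with 95% confidence intervals from the limma fit over 6 arrays; filled points passed an adjusted p of 0.05. LAMC1 lies farthest left at −1.97 at 24 h, and ITGA7 farthest right at 0.82.

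Of these genes, 18 had a signal under 5 on every array, called dim here. Control probe sets that the array labels nonspecific had a mean under 5 in 21 of 23 cases, so a dim gene may carry little signal of its own. None of the 18 dim genes passed at 6 h, where 29.8% of all genes did, and 3 rose and 2 fell at 24 h, where 31.2% and 23% of all genes did. Those shares mix bright and dim genes. A filter kept the 10297 genes with a signal of at least 5 on at least 2 arrays. Of these, 5635 were called at 6 h and 7830 at 24 h. Among the 19 members it kept, 6 were higher and 9 lower at 24 h, beside 3851 and 3979 of the 10297. ITGA7 was above 5 on the 24 h arrays alone, and ITGA6 and ITGB8 were under 5 on both 24 h arrays, so their folds rest on a level near background.

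The laminin chains LAMC1, LAMB1 and LAMB3 all fell by 24 h, and their promoters are shown because they moved in the same direction. The sequences are the 250 bases before the annotated start, from RefSeq on GRCh38.p14, written along the strand of the gene, with matches to the GC box in capitals. LAMC1 lies at chr1:183023170-183023419 on the plus strand, LAMB1 at chr7:108003162-108003411 on the minus strand and LAMB3 at chr1:209652426-209652675 on the minus strand.
LAMC1: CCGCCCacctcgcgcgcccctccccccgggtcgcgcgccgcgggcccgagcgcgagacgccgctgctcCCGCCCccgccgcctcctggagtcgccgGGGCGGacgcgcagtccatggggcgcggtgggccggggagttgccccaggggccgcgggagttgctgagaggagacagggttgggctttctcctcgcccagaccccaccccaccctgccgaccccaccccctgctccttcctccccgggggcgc
LAMB1: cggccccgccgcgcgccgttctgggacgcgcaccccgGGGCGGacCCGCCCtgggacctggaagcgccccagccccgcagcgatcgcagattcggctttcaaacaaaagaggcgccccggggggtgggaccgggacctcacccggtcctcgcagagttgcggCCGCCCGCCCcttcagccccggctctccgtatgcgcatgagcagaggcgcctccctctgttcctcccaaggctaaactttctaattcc
LAMB3: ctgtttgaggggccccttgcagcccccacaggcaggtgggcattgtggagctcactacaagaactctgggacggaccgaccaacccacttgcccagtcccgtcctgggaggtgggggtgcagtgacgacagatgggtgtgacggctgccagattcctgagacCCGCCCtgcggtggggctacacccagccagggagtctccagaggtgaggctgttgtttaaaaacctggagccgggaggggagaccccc

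The GC box was searched as GGGCGG and its reverse complement CCGCCC, the AP-1 motif as TGANTCA and the cyclic AMP response element as TGACGTCA, on both strands. LAMC1 held 3 GC boxes, LAMB1 held 4, of which a pair overlapped, and LAMB3 held 1. A GC box stood in 13 of the 26 members with a promoter in the RefSeq table and in 42.2% of 27305 promoters. The AP-1 motif was in none of the 26 and in 6.59% of all promoters, and the response element in none of the 26 and in 1.75%. These are matches of letters in a short window, and no binding was measured.

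LAMC1, the gamma chain shared by most laminin trimers, fell stepwise. Its log2 signal was 10.70 and 10.68 in control, 9.95 and 9.93 at 6 h, and 8.65 and 8.79 at 24 h. The 3 groups did not overlap, and the fall was 1.68-fold at 6 h (adjusted p = 2.29e-04) and 3.91-fold at 24 h (log2 −1.97, SE 0.08, 95% interval −2.16 to −1.78, adjusted p = 5.52e-07). The further fall from 6 h to 24 h was 2.33-fold (adjusted p = 3.89e-05).

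LAMB3, the beta chain of the laminin of hemidesmosomes, fell early and was not shown to fall further. Its signal was 9.63 and 9.57 in control, 8.57 and 8.50 at 6 h, and 8.25 and 8.47 at 24 h. Both treated groups lay below control, by 2.1-fold at 6 h (log2 −1.07, SE 0.10, adjusted p = 7.26e-05) and 2.37-fold at 24 h (log2 −1.24, SE 0.10, adjusted p = 1.17e-05). The difference between the treated groups was −0.17 on the log2 scale with an interval of −0.39 to 0.05 (adjusted p = 0.196). LAMB3 was the only one of the 37 genes past a 2-fold fall at 6 h.

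LAMB1, a beta chain of many basement membrane laminins, gave 10.41 and 10.44 in control, 10.27 and 10.16 at 6 h, and 9.62 and 9.75 at 24 h. The groups did not overlap, but at 6 h the difference of −0.21 did not pass (adjusted p = 0.112). At 24 h it was 1.67-fold lower than control (log2 −0.74, SE 0.09, adjusted p = 1.36e-04).

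**Figure D2:**
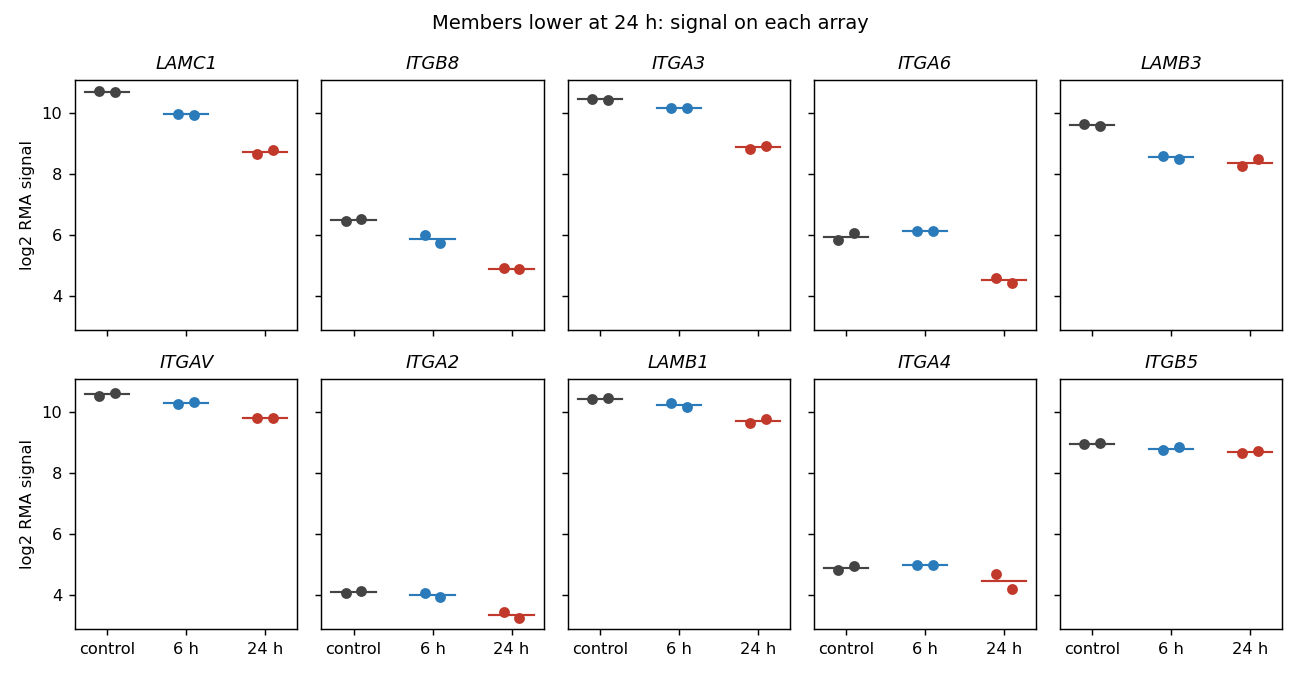
Log2 signal on each array (points) and group mean (line) for the 10 genes lower at 24 h, in control cells and after 6 h and 24 h of cisplatin, n = 2 arrays a group. LAMC1, ITGB8 and ITGA3 step down at both times, LAMB3 falls mainly by 6 h, and ITGA6 falls only after 6 h.

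The other laminin chains moved less. LAMB4 rose by 0.62 on the log2 scale at 24 h (adjusted p = 2.85e-04), from 5.22 and 5.15 to 5.77 and 5.83, and by 0.20 in the mean of its 4 probe sets (adjusted p = 0.0424). LAMA5, the alpha chain of the laminin of mature kidney basement membranes, rose by 0.35, from 6.69 and 6.68 to 7.04 on both arrays (adjusted p = 0.00473). The muscle and nerve chain LAMA2 rose by 0.35 from 3.79 and 4.02 to 4.23 and 4.28 (adjusted p = 0.0146), all dim values, and lost its call without the first control array or the second 24 h array (0.32 without the latter). LAMB2, the beta chain of the glomerular basement membrane, passed narrowly at 0.30 (adjusted p = 0.0463) and lost its call when any 1 array was left out except the first 24 h array (0.15 without the second 24 h array). Under scaling to the hybridization spike-ins the differences of LAMA2, LAMA5 and LAMB2 at 24 h turned negative too. LAMA1 (−0.13, interval −0.42 to 0.16), LAMA4 (0.19, interval −0.03 to 0.40) and LAMC3 (−0.24, interval −0.50 to 0.01) did not pass at 24 h, though without the second 24 h array LAMC3 did (−0.39, adjusted p = 0.0198), and its difference from 6 h passed too (−0.40, adjusted p = 0.0281).

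Among the laminin receptor subunits, ITGA3 and ITGA6 fell and ITGA7 rose in the deposited scale. ITGA3, which pairs with beta 1 to bind the laminins of epithelium, had a signal of 10.44 and 10.42 in control, 10.15 and 10.14 at 6 h, and 8.80 and 8.91 at 24 h. The groups were apart at each step, by 1.22-fold at 6 h (adjusted p = 0.0291) and 2.97-fold at 24 h (log2 −1.57, SE 0.08, adjusted p = 1.31e-06). The 6 h call was lost when any 1 of the 4 control or 6 h arrays was left out (adjusted p between 0.0890 and 0.134), and the 24 h call was not.

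ITGA6, the alpha subunit of the hemidesmosome receptor, was late. It read 5.82 and 6.05 in control, 6.12 on both 6 h arrays, and 4.60 and 4.41 at 24 h. The 24 h arrays lay below both other groups, with a fall of 2.69-fold from control (log2 −1.43, SE 0.10, adjusted p = 8.66e-06) and 3.07-fold from 6 h (adjusted p = 3.21e-05), while the 6 h difference of 0.19 had an interval of −0.05 to 0.43. Its partner ITGB4 gave 5.06 and 4.98 in control and 5.17 and 5.05 at 24 h, with a difference of 0.09 (interval −0.13 to 0.31).

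ITGA7, a laminin receptor subunit best known in muscle, went the other way. Its signal was 4.57 and 4.41 in control, 4.90 and 4.92 at 6 h, and 5.28 and 5.34 at 24 h, without overlap. The rise was 1.34-fold at 6 h (adjusted p = 0.00636) and 1.77-fold at 24 h (log2 0.82, SE 0.09, adjusted p = 7.29e-05). Under scaling to all spike-ins its 24 h value was −0.064, and under the poly-A spike-ins −0.39.

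Of 8 subunits of RGD receptors, 3 fell at 24 h and none rose, beside 23% and 31.2% of all genes. ITGB8, which joins alpha V and releases active TGF-beta from its latent form, read 6.44 and 6.52 in control, 6.00 and 5.75 at 6 h, and 4.90 and 4.88 at 24 h. It fell by 1.52-fold at 6 h (adjusted p = 0.00200) and 3.02-fold at 24 h (log2 −1.59, SE 0.10, adjusted p = 3.95e-06), and the groups did not overlap. In the mean of its 4 probe sets the difference was −0.20 at 6 h, which did not pass (adjusted p = 0.0687), and −0.30 at 24 h (adjusted p = 0.00627). ITGAV, the alpha V subunit of vitronectin receptors, gave 10.52 and 10.62 in control, 10.26 and 10.32 at 6 h, and 9.78 and 9.80 at 24 h. That was a fall of 1.71-fold at 24 h (log2 −0.78, SE 0.08, adjusted p = 6.74e-05). Its 6 h difference of −0.27 (adjusted p = 0.0348) lost its call when any 1 control or 6 h array was left out.

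ITGB5, another partner of alpha V, was 8.95 and 8.96 in control and 8.64 and 8.72 at 24 h, lower by 1.21-fold (adjusted p = 0.0190), and the call was lost without either control array or the first 24 h array. The other 5 subunits (ITGA2B, ITGA5, ITGA8, ITGB3 and ITGB6) did not pass at either time on the probe set used. For ITGB3, the beta subunit of the vitronectin receptor and of platelets, 4 of 7 probe sets passed lower at 24 h (−0.59, −0.68, −0.70 and −0.38) and 2 of them at 6 h (−0.32 and −0.42), and their mean passed at 24 h (−0.34, adjusted p = 0.00234). All 7 had a mean signal under 5. ITGA5, the fibronectin receptor subunit, was 6.62 and 6.69 in control and 6.68 and 6.72 at 24 h, with a difference of 0.04 (interval −0.13 to 0.22).

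ITGB1, the beta subunit that most of these alpha subunits need, read 12.57 on both control arrays, 12.44 and 12.43 at 6 h, and 12.39 on both 24 h arrays. The arrays were separated by group, yet neither difference passed: −0.13 at 6 h (adjusted p = 0.245) and −0.18 at 24 h (interval −0.35 to −0.01, adjusted p = 0.0766). With the trend and robust options of eBayes both passed (adjusted p = 0.00676 and 2.36e-04), and with the filter on dim probe sets the 24 h difference did (adjusted p = 0.0322). ITGA2, the collagen receptor subunit of epithelium and platelets, was dim and fell late. It read 4.05 and 4.13 in control, 4.05 and 3.95 at 6 h, and 3.43 and 3.26 at 24 h, a 1.67-fold fall (log2 −0.74, SE 0.09, adjusted p = 1.95e-04). The other collagen receptor subunits ITGA1, ITGA10 and ITGA11 were dim, with differences of 0.02, 0.23 and 0.23 at 24 h that did not pass.

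ITGA4, a dim subunit for fibronectin and VCAM1, read 4.82 and 4.94 in control and 4.68 and 4.20 at 24 h. Its fall of 0.44 (adjusted p = 0.0303) lost its call without either control array or the second 24 h array (−0.20 without the latter). Of its other 4 probe sets, 2 passed higher at 24 h (0.44, adjusted p = 0.0388, and 0.61, adjusted p = 0.00337), and the mean of all 5 gave a difference of 0.15. No direction is given for ITGA4. ITGA9 (0.02 at 24 h) and ITGBL1 (0.06) did not pass.

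Of the subunits known from leukocytes, ITGAE had a high signal and ITGB2 and ITGAL were dim. ITGAE, a subunit by which lymphocytes within epithelium bind E-cadherin, read 10.49 and 10.32 in control, 10.74 and 10.72 at 6 h, and 10.90 and 10.96 at 24 h. It rose by 1.25-fold at 6 h (adjusted p = 0.0238) and 1.43-fold at 24 h (adjusted p = 0.00110), and the 6 h call was lost without the second control array or either 6 h array. ITGB2, the beta subunit of leukocyte adhesion receptors, was dim, at 3.61 and 3.55 in control, 3.68 and 3.77 at 6 h, and 4.27 and 4.20 at 24 h, a 1.57-fold rise (adjusted p = 2.06e-04). ITGAL, its partner in the receptor for ICAM1, was dim as well and rose by 0.45 at 24 h (adjusted p = 0.00366) on the probe set used. Its other 3 probe sets gave −0.01, 0.07 and −0.17, and the mean of all 4 did not pass (0.08, adjusted p = 0.371). The differences of ITGAE, ITGB2 and ITGAL turned negative under scaling to all spike-ins and to the poly-A spike-ins. ITGAD, ITGAM, ITGAX and ITGB7 did not pass against control at either time. Over the leukocyte markers the mean log2 level was 3.40 in control, 3.48 at 6 h and 3.64 at 24 h, and PTPRC, which marks leukocytes as a class, was 2.91 and 2.93 in control and did not pass at 24 h (−0.13, adjusted p = 0.405). The monocyte marker CD14 and the B cell marker CD79A were higher at 24 h, by 0.78 (adjusted p = 3.58e-04) and 0.62 (adjusted p = 0.00331). The part of other cells in these values was not tested.

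Genes with several probe sets did not always agree. All 5 probe sets of LAMC1 had lower values at 24 h, from −0.26 to −2.06 on the log2 scale, and both of LAMB3 (−1.24 and −0.87), both of LAMB1 (−0.74 and −0.26) and all 3 of ITGA3 (−1.57, −0.75 and −0.09) did too. ITGA6 was lower on 2 of 3 probe sets (−1.43 and −0.82) and ITGAV on 4 of 5. The fall of ITGB8 came from 1 of 4 probe sets, and the other 3, all dim, gave 0.14, 0.01 and 0.24. ITGB1 was split, with −0.18 on the probe set used, −0.49 on a second that passed (adjusted p = 0.0360 over all probe sets), 0.52 on another that also passed (adjusted p = 0.00266), and 0.11 and 0.14 on the others. No direction is given for ITGB1.

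**Figure D3:**
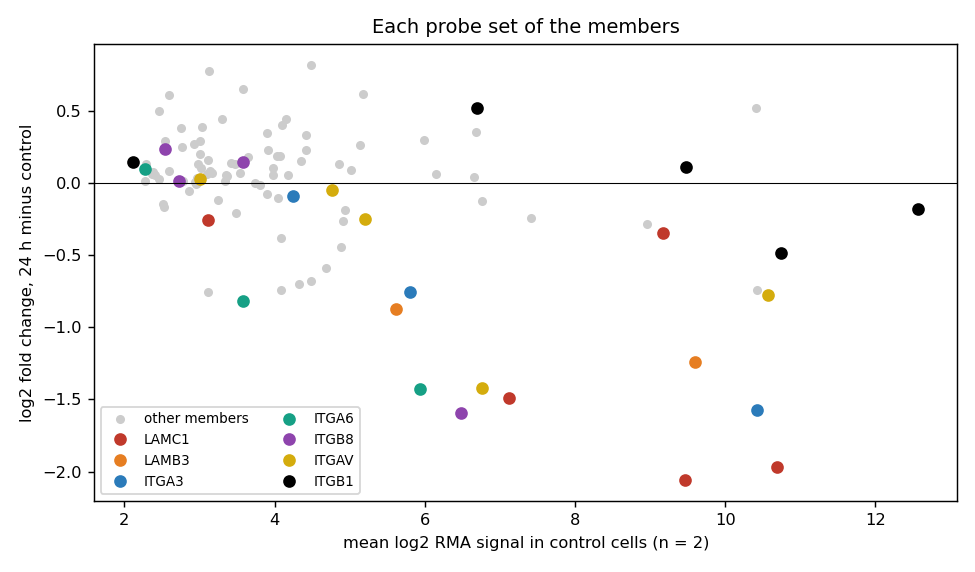
Every probe set of the 37 genes (108 points), with its mean log2 signal in control cells (n = 2) on the horizontal axis and its log2 fold change at 24 h on the vertical axis; colours mark 7 genes. The points of LAMC1 all lie below 0, while those of ITGB1 run from −0.49 to 0.52.

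Because the deposited values were set to a common distribution over arrays, each change is relative to the rest of the array. Spike-in controls, foreign RNAs added in fixed amounts, were higher against it by 0.37 at 6 h and 0.89 at 24 h over all 36 probe sets. The 9 hybridization spike-ins were higher by 0.0975 and 0.410, the 12 poly-A spike-ins by 0.541 and 1.21, and 8 housekeeping genes by 0.10 and 0.01. The mean log2 level of the poly-A spike-ins was 4.21 in control, 4.75 at 6 h and 5.42 at 24 h. Over all spike-ins it was 5.35, 5.72 and 6.24. The poly-A levels lie near 5, the limit for dim genes, so that scaling rests on signals near background. The set of all spike-ins includes those 12 probe sets as well as the 9 hybridization ones, whose control mean was 9.40. Scaling to all spike-ins thus rests in part on signals near background too. Under the poly-A scaling all 37 genes were lower at 24 h and none was higher, under all spike-ins 34 were lower and none higher, and under the hybridization spike-ins 24 were lower and 1 (ITGA7) higher. The same scalings moved the median of all genes at 24 h from 0.10 to −1.11, −0.78 and −0.31. LAMC1 at 24 h lay between −1.97 and −3.18 over these scalings and the deposited one. The mean of all probe sets gave smaller falls at 24 h, of −1.22 for LAMC1, −1.06 for LAMB3, −0.80 for ITGA3, −0.72 for ITGA6 and −0.30 for ITGB8. LAMC1, LAMB3, ITGA3, ITGA6 and ITGB8 kept their 24 h call in all 17 alternatives run, and ITGAV and LAMB1 in 16 of 17, the exception being the 2-fold rule. Some of these alternatives put a fall to little test. The spike-in scalings move all genes lower at 24 h, and leaving out a 6 h array keeps all control and 24 h arrays.

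**Figure D4:**
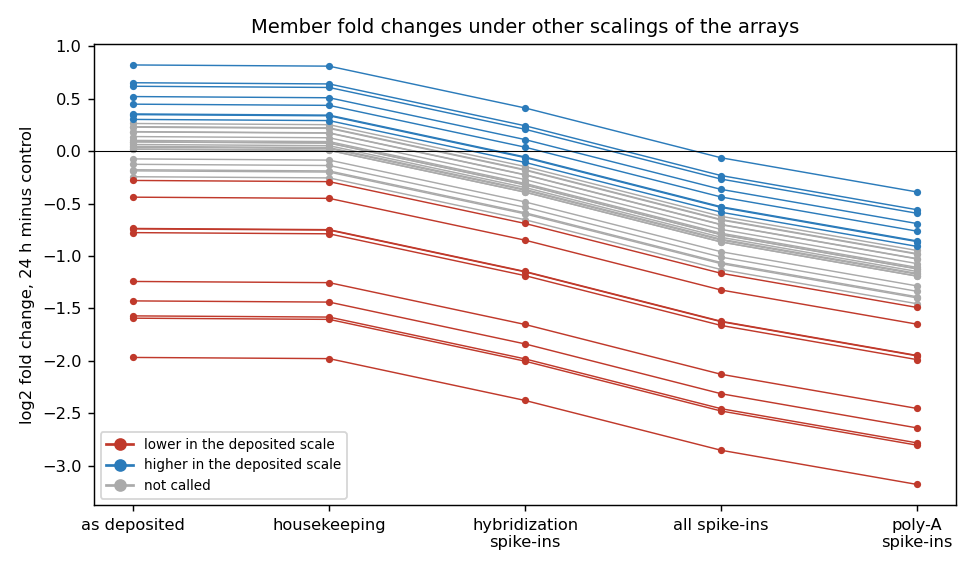
Log2 fold change at 24 h of each of the 37 genes as deposited and after 4 other scalings of the arrays (1 line a gene, coloured by its call in the deposited scale). Each scaling shifts all genes by 1 amount, so the 10 genes that fell stay below 0 under each, and the 8 that rose lie below 0 under all spike-ins and the poly-A spike-ins.

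Genes that work with integrins were read from 5 lists, chosen with earlier results of these data known. Each gene was read from 1 probe set (PTK2 and TNS3 have 3 each), and values of their other probe sets are not given here. Of 23 adaptors that link integrin tails to focal adhesions and actin, 13 were lower (56.5%) and 4 higher (17.4%) at 24 h. Of all genes, 23% were lower and 31.2% higher. The list had a median log2 fold change of −0.66 beside 0.10 for all genes. PTK2, the focal adhesion kinase, read 9.23 and 9.18 in control, 7.65 and 7.55 at 6 h, and 5.84 and 6.02 at 24 h, a log2 fold change of −3.28 (adjusted p = 1.15e-07). The actin-binding tensin TNS3 fell by 2.51 (adjusted p = 5.52e-07). Its relative TNS1 and the integrin-linked kinase ILK were higher by 0.84 and 0.70 in the deposited scale and gave −0.046 and −0.19 under all spike-ins.

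Other basement membrane components went lower in 8 of 17 cases and higher in 2 at 24 h, with a median of −0.17. Those shares were 47.1% and 11.8%, beside 23% and 31.2% of all genes. COL4A1, a chain of the type IV collagen network, read 9.98 and 10.08 in control, 9.51 and 9.46 at 6 h, and 8.36 on both 24 h arrays, a fall of 1.67 (adjusted p = 9.36e-07). PXDN, the enzyme that cross-links this collagen, fell by 0.99 (adjusted p = 1.47e-05). SPARC, a collagen-binding protein, and the dim COL4A4 were higher by 0.34 and 0.33 in the deposited scale, with negative values under each spike-in scaling.

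Of 9 hemidesmosome and laminin receptor partners, 3 rose and 3 fell at 24 h (33.3% each), beside 31.2% and 23% of all genes. The beta sarcoglycan gene SGCB rose 4-fold (adjusted p = 5.52e-07), with positive values under each scaling. The syndecan SDC4 rose by 1.07 (−0.14 under the poly-A spike-ins), and its relative SDC1 fell by 0.66, as did the tetraspanin CD9 by 1.21. Of 20 matrix ligands, 6 rose and 6 fell (30% each), beside 31.2% and 23% of all genes. CCN2 rose by 1.63 (adjusted p = 1.01e-06), with positive values under each scaling, while CCN1, of the same matricellular family, fell by 1.72 (adjusted p = 1.40e-06). MFGE8, an RGD ligand, was higher by 0.84 (−0.048 under all spike-ins), and the fibrillin FBN1 fell by 1.48. A further list held 11 integrin inactivators, proteins that bind integrin tails and proteins that carry integrins through endosomes. Of these, 4 fell (36.4%) and 2 rose (18.2%), beside 23% and 31.2% of all genes. SIPA1L1 was at −1.70, NUMB at −1.03, DAB2 at 0.87 and RAB21 at 0.29. The last 2 turned negative under all spike-ins (−0.018 and −0.60). At 6 h, where 15.8% of all genes were lower and 14% higher, 10 of 23 adaptors were lower and 2 higher (43.5% and 8.7%). The counts lower and higher were 2 and 1 of 17 basement membrane components (11.8% and 5.88%). They were 0 and 2 of 9 hemidesmosome partners (0% and 22.2%) and 2 and 3 of 20 matrix ligands (10% and 15%). For the 11 inactivators and tail binding proteins they were 3 and 2 (27.3% and 18.2%).

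Gene length moved with the change over the whole array. Across 18179 genes, Spearman's rho between the log2 fold change at 24 h and gene span, the length of the gene in the RefSeq annotation, was −0.350, and genes are not independent replicates. The 37 genes had a median span of 79.4 kb, beside 25.7 kb for all genes, and within them rho was −0.165. The median change of all genes at 24 h was 0.12 for spans of 25.7 to 37.0 kb and 0.05 for 37.0 to 54.1 kb. It was −0.05 in a bin of 1818 genes with spans of 54.1 to 86.6 kb, −0.22 in the next longer bin and −0.18 in the longest. LAMC1, ITGB8, ITGA3, ITGA6 and LAMB3 lay below each of these medians by more than 1 on the log2 scale, without a match of each gene to its own bin. Named partner genes that fell ranged in span from CCN1 at 3.19 kb to SIPA1L1 at 421 kb, with PTK2 at 344 kb and TNS3 at 307 kb. Of those that rose, TNS1 spanned 234 kb and ILK 7.1 kb. The part of gene span in the falls, of the 37 genes and of the partner lists, was not tested.

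**Figure D5:**
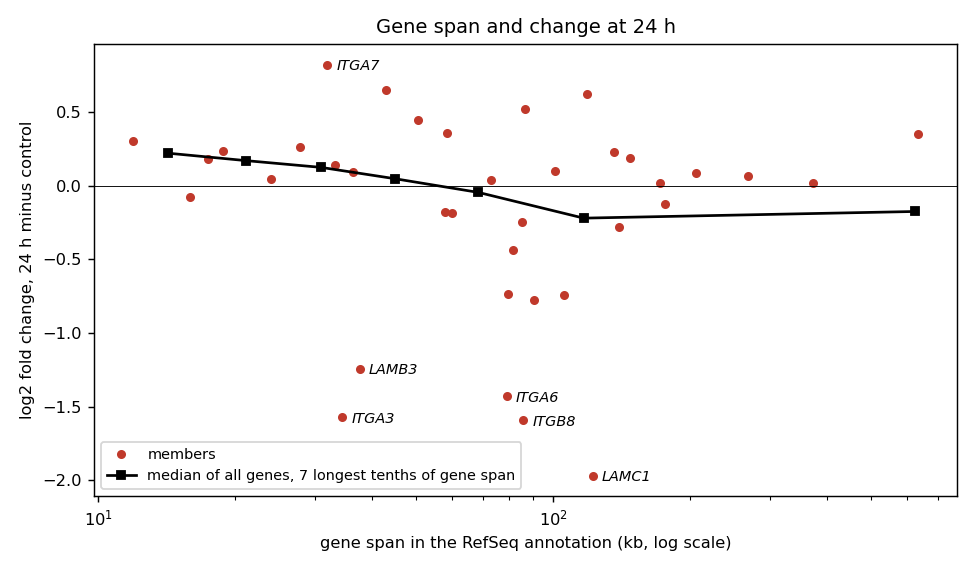
Log2 fold change at 24 h of the 37 genes (red) against gene span on a log scale, with the median of all genes in the 7 longest of 10 bins of span (black). The black line runs from 0.22 to −0.22, and LAMC1, ITGB8, ITGA3, ITGA6 and LAMB3 lie at −1.24 or lower.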

How the data were processed

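Affymetrix U219 arrays, 2 per group, were used for RNA of HK-2 cells without treatment and at 2 times of cisplatin, whose number limits the precision. The deposited log2 signals were made by the authors with the RMA method in Affymetrix Expression Console 1.1, per the submitters' processing notes. This step removes background, gives all arrays the same distribution of values and combines the probes of a set. Changes are therefore relative to the whole array. The platform annotation gave 1 gene for 45253 of 49386 probe sets. The others were left out. Differences were tested with limma 3.58.1 (R 4.3.3) in 1 fit of 3 groups, with Benjamini-Hochberg adjustment over 18239 genes, two-sided, at 0.05. The test was run on simulated data with normal noise and changes set in few genes, which does not show its error rate in these data. Promoters were searched with Python 3.11.15. The 37 genes were all named. From each partner list, up to 2 rises and 2 falls with separated arrays were named. The members and lists, the motifs and the promoters shown were chosen with earlier results of these data known. The alternatives were a replicate block, the mean of all probe sets, a fit of the compared groups alone, eBayes with its trend and robust options, a filter on dim probe sets, 4 scalings, an adjusted p under 0.01, the methods' rule of a 2-fold change at an unadjusted p under 0.01, and each array left out. The labels do not say whether the replicate numbers pair the samples, and the main fit took them as unpaired.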

Additional observations from a re-analysis of the deposited data

Results flagged for a closer look

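For 13 of the 37 genes the effect at 24 h differed from that at 6 h by a test of the difference itself, the limma contrast of the 24 h and 6 h arrays, where 37.9% of all genes passed in either direction. In the log2 fold change at 24 h minus that at 6 h, the lower laminin chains were LAMC1 at −1.22 (adjusted p = 3.89e-05) and LAMB1 at −0.53 (adjusted p = 0.00189). The lower receptor subunits were ITGA6 at −1.62 (adjusted p = 3.21e-05), ITGA3 at −1.29 (adjusted p = 3.06e-05), ITGB8 at −0.99 (adjusted p = 1.95e-04), ITGA2 at −0.65 (adjusted p = 9.39e-04), ITGA4 at −0.55 (adjusted p = 0.0172), ITGAV at −0.51 (adjusted p = 0.00171) and ITGB7 at −0.27 (adjusted p = 0.0309). The higher ones were ITGB2 at 0.51 (adjusted p = 0.00173), LAMB4 at 0.45 (adjusted p = 0.00309), ITGA7 at 0.40 (adjusted p = 0.00743) and LAMA2 at 0.34 (adjusted p = 0.0227). The call of LAMA2 was lost when any 1 of the 4 treated arrays was left out, that of ITGA4 without either 6 h array or the second 24 h array, and that of ITGB7 without either 6 h array or the first 24 h array. In the mean of all probe sets, ITGB8 (−0.10, adjusted p = 0.283), ITGAV (−0.34, adjusted p = 0.0665), ITGA4 (−0.02, adjusted p = 0.848), ITGB7 (−0.01, adjusted p = 0.934) and LAMB4 (0.14, adjusted p = 0.178) did not pass, and ITGB7 did not with the trend and robust options of eBayes either (adjusted p = 0.0924). Groups of 2 arrays were too small to look for single arrays that stand apart.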

How the results depend on the processing

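As deposited, 2 members were higher and 5 lower at 6 h, 8 were higher and 10 lower at 24 h, and 4 were higher and 9 lower between the times. With all spike-ins they were 0 and 22, 0 and 34, and 0 and 29, and with the poly-A spike-ins 0 and 25, 0 and 37, and 0 and 33. With the hybridization spike-ins 1 was higher at 6 h, 1 was higher and 24 lower at 24 h, and 0 were higher and 20 lower between the times. With housekeeping genes 1 was higher at 6 h and 11 between the times. Genes called over the whole array were 5435, 9886 and 6906, and became 10937, 16700 and 13338 with all spike-ins and 13452, 17293 and 14534 with the poly-A spike-ins. Of the calls over all genes at 24 h, 57.5% were higher, against 3.55% with all spike-ins, 15% with the hybridization and 1.52% with the poly-A spike-ins. An adjusted p under 0.01 left 1 member higher and 3 lower at 6 h, and 4252 genes between the times. The 2-fold rule left 0 higher at each comparison, 1, 5 and 3 lower, and 900, 2210 and 614 genes. The mean of all probe sets left 2 lower at 6 h and 5 between the times, and the filter on dim probe sets left 2 higher between the times. Among single members, the mean of all probe sets ended the 6 h calls of ITGA3, ITGAV and ITGB8 and the 24 h call of ITGAL, and it added LAMA5 at 6 h and ITGB3, ITGA10, ITGA11, ITGAX and LAMA4 at 24 h. The trend and robust options of eBayes added ITGB1 and LAMB1 at 6 h (adjusted p = 0.00797 for LAMB1), ITGB1 and LAMC3 at 24 h and ITGAE and LAMC3 between the times. The filter on dim probe sets added LAMA5 and LAMB1 at 6 h and ITGAX and ITGB1 at 24 h.

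A direction was counted as reversed where the sign changed and either fit made a call, a definition set after the values were seen. Each spike-in scaling shifts all genes by 1 amount, which is what turns these signs. In log2 fold change at 6 h, all spike-ins gave ITGA9 −0.33, ITGAE −0.050, ITGAM −0.35, ITGAX −0.33, LAMA2 −0.37 and LAMC3 −0.36. The poly-A spike-ins gave ITGA4 −0.43, ITGA7 −0.12, ITGA9 −0.50, ITGAE −0.22, ITGAM −0.52, ITGAX −0.50, ITGB2 −0.40, LAMA1 −0.42, LAMA2 −0.54 and LAMC3 −0.53. At 24 h against control, all spike-ins gave ITGA1 −0.87, ITGA10 −0.65, ITGA11 −0.66, ITGA2B −0.70, ITGA5 −0.84, ITGA7 −0.064, ITGA8 −0.80, ITGA9 −0.87, ITGAD −0.75, ITGAE −0.37, ITGAL −0.44, ITGAM −0.85, ITGAX −0.62, ITGB2 −0.23, ITGB4 −0.80, ITGB6 −0.78, ITGBL1 −0.82, LAMA2 −0.54, LAMA4 −0.70, LAMA5 −0.53, LAMB2 −0.58 and LAMB4 −0.27. The poly-A spike-ins gave ITGA1 −1.19, ITGA10 −0.98, ITGA11 −0.98, ITGA2B −1.03, ITGA5 −1.17, ITGA7 −0.39, ITGA8 −1.12, ITGA9 −1.19, ITGAD −1.07, ITGAE −0.69, ITGAL −0.76, ITGAM −1.18, ITGAX −0.95, ITGB2 −0.56, ITGB4 −1.12, ITGB6 −1.11, ITGBL1 −1.15, LAMA2 −0.86, LAMA4 −1.03, LAMA5 −0.86, LAMB2 −0.91 and LAMB4 −0.59, and the hybridization spike-ins ITGA1 −0.39, ITGA5 −0.37, ITGA8 −0.32, ITGA9 −0.39, ITGAD −0.27, ITGAM −0.37, ITGB4 −0.32, ITGB6 −0.31, ITGBL1 −0.35, LAMA2 −0.062, LAMA5 −0.06 and LAMB2 −0.11. Between the times, all spike-ins gave ITGA1 −0.37, ITGA5 −0.42, ITGA7 −0.11, ITGA8 −0.28, ITGAE −0.31, ITGAM −0.50, ITGB2 −0.0026, ITGB4 −0.37, ITGB6 −0.35, LAMA2 −0.17, LAMA5 −0.37, LAMB2 −0.46 and LAMB4 −0.059, and the poly-A spike-ins ITGA1 −0.53, ITGA10 −0.39, ITGA2B −0.38, ITGA5 −0.58, ITGA7 −0.27, ITGA8 −0.44, ITGAE −0.47, ITGAL −0.45, ITGAM −0.65, ITGAX −0.44, ITGB2 −0.16, ITGB4 −0.53, ITGB6 −0.51, LAMA2 −0.33, LAMA5 −0.52, LAMB2 −0.61 and LAMB4 −0.22. The mean of all probe sets turned ITGA4 to 0.15 at 24 h, where the cause was not tested. Members without a call in either fit also changed sign, up to 13 in a setting.

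Leaving out each array in turn gave 1 to 2 members higher, 3 to 5 lower and 3849 to 5622 genes called for 6 h, 6 to 9 higher, 8 to 10 lower and 7825 to 9464 genes for 24 h, and 3 to 4 higher, 7 to 9 lower and 4653 to 6608 genes between the times. Without the second 6 h array ITGBL1 passed at 6 h (0.40), without the first control array ITGAX passed at 24 h (0.38), and without the first 24 h array ITGA10 did (0.34). A lone array was taken to vary like the other groups. The same replicate numbers did not deviate together (correlations of 0.046, −0.056 and −0.058). The labels do not say whether arrays with the same number came from a common culture. With the replicate block the members higher and lower were again 2 with 5, 8 with 10, and 4 with 9, and 5209, 9716 and 6689 genes were called. At 24 h it lost LAMB2 and gained ITGAX. Signals near background limit the 18 dim genes.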
